A study of Mus musculus with 82 samples.

Results

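Prostanoid synthesis enzymes and receptors were followed in cultured mouse aortic vascular smooth muscle cells (aVSMC). The 10 genes were Ptgs1, Ptgs2, Ptgis, Tbxas1, Ptges, Ptgir, Ptger1, Ptger2, Ptger3 and Ptger4. They were chosen by name from the 55401 genes counted, 34819 of them with a count in some library. RNA-sequencing was available for 82 libraries, 42 after 24 h and 40 after 48 h of incubation, and served to ask what activation of the receptors for EGF, AngII and thromboxane does to the transcriptome.

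All cultures were primary cells of C57BL/6 mice, used within 7 passages. The growth medium held serum and EGF, and every culture, controls included, then spent 24 h in medium free of serum and supplements before the incubation. EGF was given at 10 µg/L, AngII (angiotensin II) at 10 nM and U46619, a stable agonist of the thromboxane receptor TP, at 1 µM. After 24 h the 7 groups were the control, the 3 single agents, EGF with AngII (EGF+AngII), EGF with U46619 (EGF+U46619) and all 3 agents (EGF+AngII+U46619), with n = 6 cultures of mice 1 to 6 in every group. After 48 h there were 6 groups in 2 batches with n = 5 cultures per group. Both batches included control and EGF, which thus had n = 10, and U46619 and EGF+U46619 were run in the EGF/U46619 batch, AngII and EGF+AngII in the EGF/AngII batch. Cultures of a batch that carry the same replicate number are called a culture set. The labels give 5 mouse numbers for the 10 sets, whereas the methods speak of another mouse for each replicate, so p-values after 48 h describe the spread between culture sets.

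Prostanoids are made from arachidonic acid in consecutive steps. A cyclooxygenase forms the unstable prostaglandin H, and a terminal synthase turns it into prostacyclin, thromboxane or another prostaglandin. In the arterial wall prostacyclin relaxes smooth muscle through the receptor IP, thromboxane contracts it through TP, and prostaglandin E acts on the family of EP receptors with opposing effects. Ptgs1 encodes the cyclooxygenase that most cells make all the time, and Ptgs2 the cyclooxygenase that stimuli induce. Ptgis encodes prostacyclin synthase, Tbxas1 thromboxane synthase and Ptges the inducible prostaglandin E synthase. Ptgir encodes IP, and Ptger1 to Ptger4 encode the EP receptors.

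The upstream sequences of 4 genes that differed between incubations are shown first, 150 bases up to the annotated start, 5′ to 3′ on the gene's strand. They come from RefSeq (GRCm38.p6), which held a promoter for 8 of the 10 genes. Capitals mark a match to a motif searched on both strands.

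Ptgs2 (chr1:150099881-150100030, plus strand): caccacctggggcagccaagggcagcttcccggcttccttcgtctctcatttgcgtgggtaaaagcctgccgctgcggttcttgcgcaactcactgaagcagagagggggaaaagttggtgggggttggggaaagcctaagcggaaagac
Ptgs1 (chr2:36230276-36230425, plus strand): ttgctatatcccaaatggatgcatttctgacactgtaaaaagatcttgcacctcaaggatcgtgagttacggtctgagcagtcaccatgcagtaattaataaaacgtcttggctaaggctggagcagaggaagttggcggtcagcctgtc
Tbxas1 (chr6:38918836-38918985, plus strand): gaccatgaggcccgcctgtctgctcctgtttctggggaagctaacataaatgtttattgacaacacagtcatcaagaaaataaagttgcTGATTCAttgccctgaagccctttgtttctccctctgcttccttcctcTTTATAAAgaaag
Ptgir (chr7:16906340-16906489, plus strand): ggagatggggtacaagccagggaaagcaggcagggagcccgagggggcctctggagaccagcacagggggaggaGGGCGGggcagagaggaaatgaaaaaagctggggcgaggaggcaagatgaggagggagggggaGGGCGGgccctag

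The 7 motifs searched, from 250 bases before to 50 bases after the start, were TGACG and the full cAMP response element TGACGTCA, the E-box CACGTG, the TATA box TATAAA, the AP-1 motif TGANTCA, the GC box GGGCGG and the CCAAT box CCAAT. Tbxas1 held an AP-1 motif 61 to 55 bases before the start and a run of overlapping TATA boxes, TTTATAAA, 13 to 6 bases before it. Ptgir held a GC box 76 to 71 and another 13 to 8 bases before its start. The matches of Ptgs2 lay outside the stretch shown. They were a GC box that begins 170 bases before the start and, at bases 14 to 22 after it, the run CGTCACGTG, in which TGACG on the other strand overlaps an E-box. Ptgs1 held none of the 7 in the window searched (0 matches). Among 32851 RefSeq promoters of the same 300 bases, 7.81% held TGANTCA, 13.6% TATAAA, 35.7% GGGCGG, 20.8% TGACG, 1.79% TGACGTCA, 7.15% CACGTG and 37.4% CCAAT. The RefSeq start of Tbxas1 lies inside the gene as annotated in the count table's build (chr6:38875404-39084585). The other genes shown span chr1:150100031-150108227 (Ptgs2), chr2:36230426-36252272 (Ptgs1) and chr7:16906490-16910905 (Ptgir). All members are protein-coding, and of those not shown, 5 lie at chr2:167191805-167240604 (Ptgis), chr2:30889471-30929863 (Ptges), chr14:44988195-45003820 (Ptger2), chr3:157566892-157645888 (Ptger3) and chr15:5206661-5244187 (Ptger4).

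Total counts were 16483529 to 20818809 per library after 24 h and 19936925 to 33916114 after 48 h. Levels are given as FPM, fragment counts scaled by the TMM library size, and 3 counts in a library, the most that a count of 0 allows, corresponded to 0.133 to 0.226 FPM after 24 h and 0.0829 to 0.154 FPM after 48 h, counting error only. A gene was called a DEG when the FDR was under 0.05 in both edgeR and DESeq2 and its mean reached 5 FPM in a group compared. Markers of smooth muscle summed to 1256 to 5380 FPM in the 24 h controls and to 578 to 8114 FPM in the 48 h controls, although Tagln and Cnn1 were listed at 0 with all genes of chromosome 9. Cultures of different mice also differed in markers of other cell types. In the 24 h controls, markers of adventitial fibroblasts summed to 595 to 3502 FPM, of endothelium to 4.85 to 2151 FPM, of mesothelium to 0.419 to 882 FPM, and the 6 markers of macrophages and leukocytes to 20.9 to 114 FPM, of which Lyz2 took 15.1 to 109 FPM and Csf1r 1.18 to 14.5 FPM, while Ptprc and Adgre1, which define leukocytes and macrophages, were at 0. In these bulk libraries, fewer cells of a type and less RNA per cell cannot be told apart.

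One control library stood apart from its own set. Over the 1000 most variable genes, the control of set 4 of the EGF/AngII batch correlated with the treated libraries of its set at r = −0.584 to −0.581 and with those of set 2 at 0.968 to 0.985. In the 3 sets other than 2 and 4, controls correlated with their own treated libraries at 0.913 to 0.99. The control of set 2 did so only at 0.686 to 0.728, and correlated with those of set 1 at 0.681 to 0.76. These libraries carried members of the prostanoid genes with them. Ptgs1 stood at 19.1 FPM in the control of set 4 and at 99.2 to 123 FPM in its treated cultures, Ptges at 2.82 against 82.8 to 85.3 FPM, and Ptgir at 2.59 against 47.3 to 52.3 FPM. Ptges was 24.9 FPM in the control of set 2 and 2.78 to 3.38 FPM in its treated cultures. The members' changes with U46619 alone after 48 h are therefore also given without these libraries. These libraries are also the controls of their sets for EGF, AngII and EGF+AngII, whose results after 48 h rest partly on them.

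Prostacyclin synthase was by far the most abundant member per transcript length. In the 24 h controls, the median of FPM per kb of exon was 88.9 for Ptgis, 6.74 for Ptgs1, 3.08 for Ptgir, 1.53 for Ptgs2, 0.636 for Ptger4, 0.355 for Ptges, 0.243 for Ptger1, 0.0139 for Tbxas1 and 0.00412 for Ptger3, and Ptger2 had a median of 0. The 6 values of Ptgis (39.8 to 387) lay above all those of Ptgs1 (5.19 to 31.3), and those of Ptger1 (0.160 to 0.318) above all those of Tbxas1 (0 to 0.0619). The other neighbours in this order overlapped. After 48 h the medians were 80.2 for Ptgis, 10.9 for Ptgs1, 4.32 for Ptgs2, 3.51 for Ptgir, 1.83 for Ptger4, 1.63 for Ptges, 0.175 for Ptger1, 0.0431 for Ptger3, 0.0218 for Tbxas1 and 0.0130 for Ptger2, and every pair of neighbours overlapped. Exons of Ptger1 overlap those of other genes more than those of any other member, and whether counting used the strand is not given in the sources used here, so its level is uncertain. Of the exon bases of Ptger4, 16.5% also lie in exons of other genes, of those of Ptger2 7.51%, and of those of each other member apart from Ptger1 6.08% or less.

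**Figure D1:**
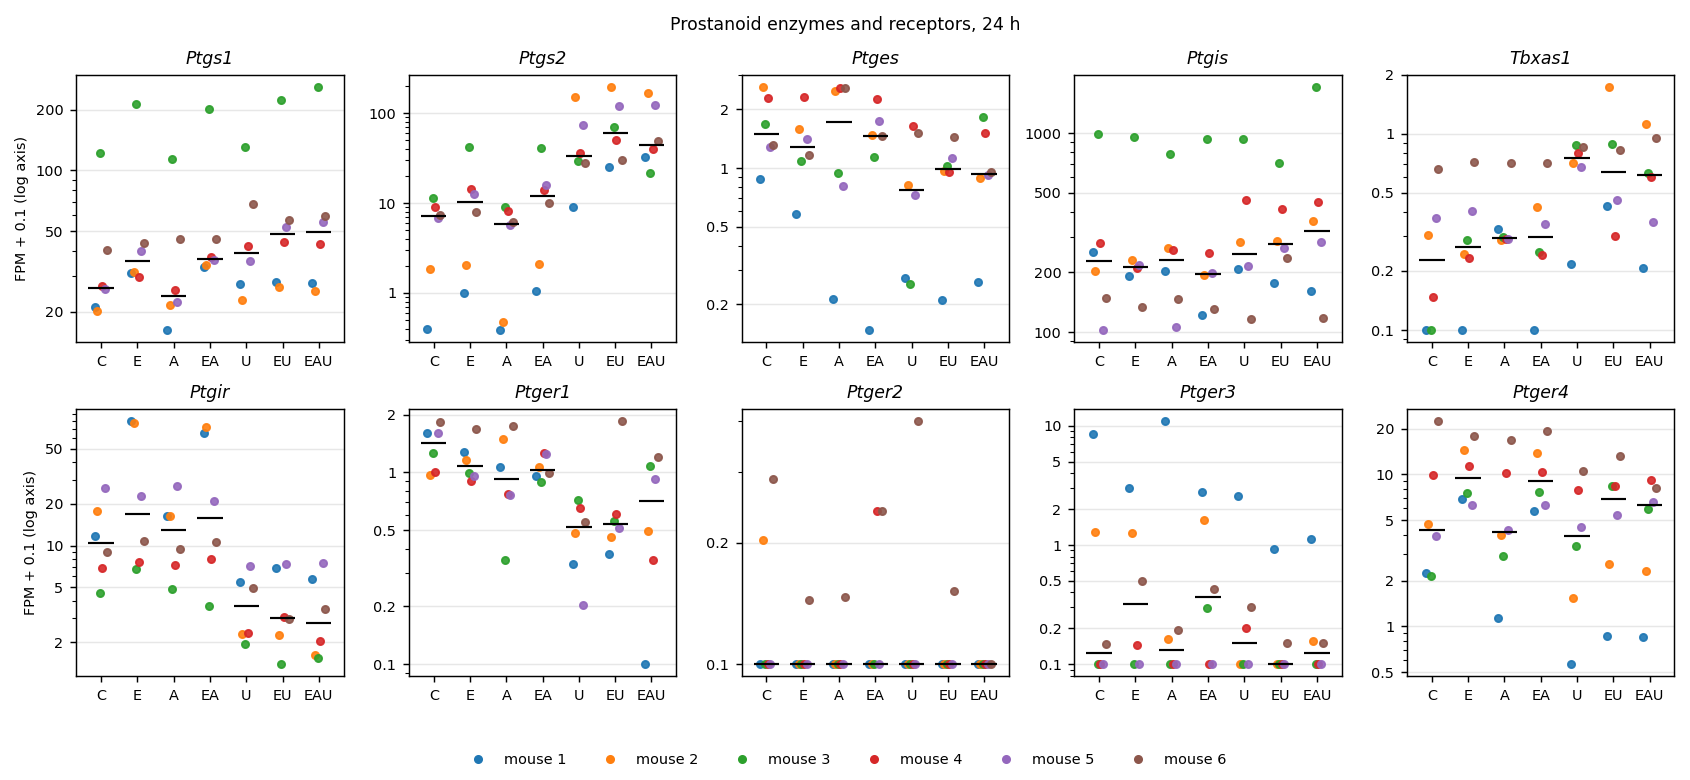
FPM of the 10 genes after 24 h, with 1 point per culture coloured by mouse, a line at the median of each group (n = 6) and a logarithmic axis of FPM plus 0.1; C is control, E is EGF, A is AngII and U is U46619. Ptgs2 is higher and Ptgir lower in the groups that received U46619, and mouse 3 holds the highest Ptgs1 value in every group.

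Ptgs2 rose in every incubation with U46619 after 24 h. Its control levels in mice 1 to 6 were 0.300, 1.75, 11.5, 8.89, 6.66 and 7.36 FPM, and with U46619 they were 9.05, 150.8, 29.7, 36.3, 73.7 and 27.9 FPM. With EGF+U46619 they were 25.1, 198, 69.7, 50.5, 121 and 30.0 FPM. All 6 mice were higher than their own control, and no value of EGF+U46619 overlapped the controls, while mouse 1 with U46619 alone lay below the control of mouse 3. The log2-fold change was 3.24 ± 0.707 (SE, n = 6) with U46619 (edgeR FDR 0.000758), 3.93 ± 0.722 with EGF+U46619 (FDR 7.93e-05) and 3.93 ± 0.724 with EGF+AngII+U46619 (FDR 6.49e-05). The size depended on the mouse. In mouse 2, which had a low control, U46619 gave an 86.4-fold higher level, whereas in mouse 3, which had the highest control, it gave a 2.59-fold higher one.

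Without U46619, Ptgs2 did not pass the test. EGF alone gave a higher level in 6 of 6 mice, 0.907, 1.97, 42.4, 14.1, 12.4 and 7.83 FPM, with a log2-fold change of 0.93 and a 95% interval of −0.42 to 2.27 (edgeR FDR 0.468). EGF+AngII gave 1.02 (FDR 0.339) and AngII −0.28 (FDR 1). In direct comparisons on the log2 scale, EGF+U46619 lay above EGF by 3.01 ± 0.695 (FDR 0.00327) and U46619 above EGF by 2.31 ± 0.686 (FDR 0.0219, lost without mouse 1, 2 or 5). EGF+U46619 and U46619 differed by 0.69 (95% interval −0.57 to 1.96, FDR 1), and the interaction of EGF and U46619 was −0.23 ± 0.898 (FDR 1).

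Ptgs1 changed less, but in the same direction in every mouse. Its control levels were 21.0, 20.2, 122, 26.6, 25.7 and 40.1 FPM, and with EGF+U46619 they were 27.9, 26.3, 222, 44.1, 52.6 and 56.6 FPM. Mouse 3 lay far above the others in both groups, and the groups overlapped with or without this mouse. Against control, the log2-fold change was 0.45 ± 0.142 with U46619 (edgeR FDR 0.0144), 0.56 ± 0.142 with EGF+AngII (FDR 0.0408), 0.66 ± 0.142 with EGF+U46619 (FDR 0.000438) and 0.72 ± 0.142 with EGF+AngII+U46619 (FDR 0.000162), higher in 6 of 6 mice each time. With EGF alone it was 0.50 ± 0.142, which passed in DESeq2 (FDR 0.0368) but not in edgeR (FDR 0.0923), and was called when mouse 6 was left out. EGF+AngII and EGF differed by 0.06 (95% interval −0.23 to 0.35, FDR 1). The call with U46619 was lost without mouse 4 (FDR 0.0557), and the call with EGF+AngII was lost without any one of mice 1, 2, 3 or 5.

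The balance between both cyclooxygenases was described per length. Ptgs2 made up a median of 10.4% of the summed FPM per kb of Ptgs1 and Ptgs2 in the controls, 13.9% with EGF, 8.25% with AngII, 33.9% with U46619, 46.3% with EGF+U46619 and 47.0% with EGF+AngII+U46619. Ptgs2 exceeded Ptgs1 in 0 of 6 controls and in 2 of 6 cultures in each group with U46619. Per mouse, the log2 change of Ptgs2 exceeded that of Ptgs1 by 2.61 ± 1.86 (SD, n = 6) with U46619, in 6 of 6 mice (exact two-sided sign-flip permutation test, p = 0.031, the smallest that 6 mice can give, and 0.275 after adjustment over 22 such comparisons). With EGF alone the difference was 0.25 ± 0.513 (exact permutation p = 0.344, adjusted 0.589).

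Prostacyclin synthase was not a DEG in any incubation. Ptgis stood at 254, 203, 993, 281, 102 and 147.9 FPM in the 24 h controls and at 206, 282, 939, 461, 214 and 116 FPM with U46619, with higher values in 3 mice and lower ones in the other 3. The log2-fold change was 0.22 (95% interval −0.22 to 0.66, edgeR FDR 0.44) with U46619, 0.00 with EGF (−0.43 to 0.44, FDR 0.998) and 0.47 with EGF+AngII+U46619 (0.03 to 0.91, FDR 0.0776), the last called without mouse 1 or without mouse 6. Differences between mice made up 84.3% of the sum of squares of Ptgis on the log2 scale and incubations 4.29%. For Ptgs1 these shares were 87.8% and 7.99%, and for Ptgs2 20.7% and 57.9%. The control of mouse 3, with the highest Ptgis and Ptgs1, also had the highest sums of fibroblast (3502 FPM) and mesothelial (882 FPM) markers, and their part in these levels was not tested.

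Thromboxane synthase and the inducible prostaglandin E synthase were below 5 FPM in every 24 h library. Tbxas1 stood at 0, 0.205, 0, 0.0475, 0.274 and 0.563 FPM in the controls and at 0.116, 0.606, 0.773, 0.700, 0.576 and 0.753 FPM with U46619, higher in 6 of 6 mice. Most of these values rest on few counts, at most 32 in a library. Its log2-fold change passed the FDR in both tools without reaching 5 FPM, with 1.87 ± 0.520 (edgeR FDR 0.00598) for U46619, 2.00 ± 0.518 (FDR 0.00259) for EGF+U46619 and 1.64 ± 0.525 (FDR 0.0122) for EGF+AngII+U46619. Ptges had 0.779, 2.52, 1.58, 2.19, 1.19 and 1.22 FPM in the controls and 0.174, 0.716, 0.154, 1.55, 0.628 and 1.41 FPM with U46619, lower in 5 of 6 mice. Its log2-fold change was −1.21 ± 0.387 (FDR 0.0154) with U46619 and −0.99 ± 0.380 (FDR 0.0369) with EGF+U46619, again below the 5 FPM required of a DEG. With EGF+AngII+U46619 it was −0.83, which did not pass (FDR 0.0787). Set against Ptgis with a pseudocount of 0.5 FPM, the log2 change of Ptgis minus that of Tbxas1 was −0.44 ± 0.657 (SD, n = 6) with U46619 (exact permutation p = 0.125, adjusted 0.458). The pseudocount set the size of this difference, which was −1.26 with 0.1 FPM.

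The prostacyclin receptor moved in the other direction. Ptgir stood at 11.7, 17.7, 4.46, 6.75, 26.0 and 8.86 FPM in the controls and at 5.34, 2.20, 1.85, 2.25, 6.96 and 4.82 FPM with U46619. With EGF alone it stood at 79.6, 76.3, 6.62, 7.56, 22.8 and 10.6 FPM. Every mouse was lower than its control with U46619, and mice 1 and 2 stood out with EGF, at 6.82 and 4.32 times their controls. Ptgir fell with U46619 by 1.56 ± 0.419 on the log2 scale (edgeR FDR 0.00458), and the log2-fold change was −1.67 ± 0.420 with EGF+U46619 (FDR 0.00195) and −1.80 ± 0.426 with EGF+AngII+U46619 (FDR 0.000983). EGF gave 1.12 ± 0.404, higher in 5 of 6 mice, which did not pass (FDR 0.143), and EGF+AngII gave 0.92 ± 0.404 (FDR 0.151). In mice 1 and 2 the values with EGF+U46619 were 6.75 and 2.15 FPM. EGF+U46619 lay below EGF by a log2-fold change of −2.79 ± 0.435 (FDR 9.12e-05), and the interaction of EGF and U46619 was −1.23 ± 0.586 (FDR 1).

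**Figure D2:**
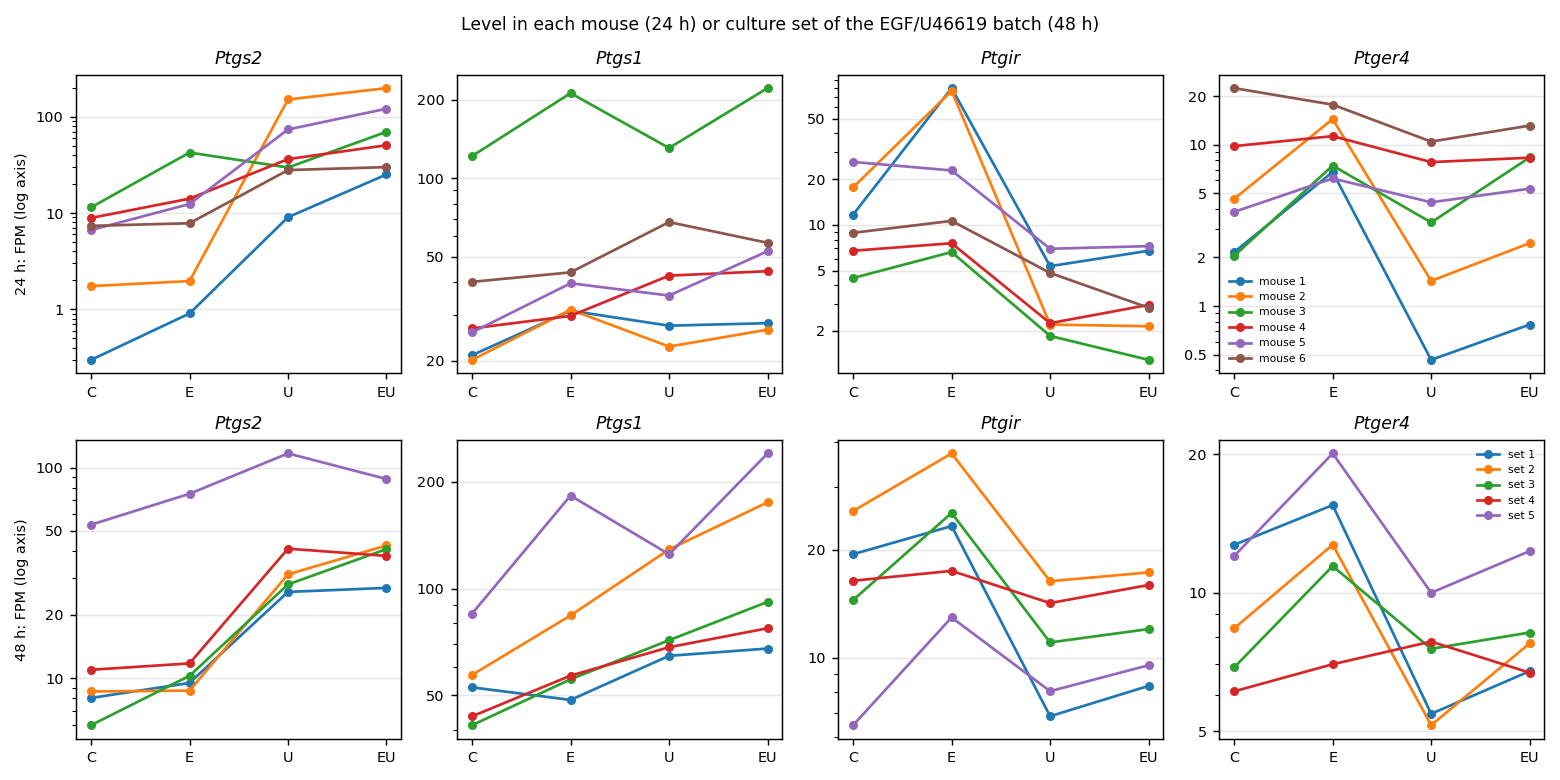
FPM (logarithmic axis) of Ptgs2, Ptgs1, Ptgir and Ptger4 in control (C), EGF (E), U46619 (U) and EGF+U46619 (EU), with 1 line per mouse after 24 h (upper row) or per culture set of the EGF/U46619 batch after 48 h (lower row). The Ptgs2 lines rise from C to U in 6 of 6 mice and 5 of 5 sets, and the Ptgir lines of mice 1 and 2 peak with EGF after 24 h.

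Among the EP receptors, Ptger4, which raises cAMP, was the best detected. It stood at 2.16, 4.62, 2.05, 9.79, 3.83 and 22.4 FPM in the controls, at 6.78, 14.4, 7.42, 11.3, 6.18 and 17.7 FPM with EGF and at 0.464, 1.43, 3.30, 7.80, 4.39 and 10.5 FPM with U46619. Against control, neither EGF (log2-fold change 0.98 ± 0.385, edgeR FDR 0.172) nor U46619 (−0.65 ± 0.390, FDR 0.2) passed. Compared directly, Ptger4 was lower with U46619 than with EGF in 6 of 6 mice, with a log2-fold change of −1.63 ± 0.397 (FDR 0.00577), a call lost without mouse 2 (FDR 0.0715). Between EGF+U46619 and EGF it was −1.06 ± 0.389 (FDR 0.0566).

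Ptger1, whose receptor raises intracellular calcium, was counted at 0.872 to 1.74 FPM in the controls and at 0.105 to 0.618 FPM with U46619, without overlap. Its log2-fold change was −1.69 ± 0.447 with U46619 (edgeR FDR 0.00407), −1.17 ± 0.426 with EGF+U46619 (FDR 0.0279) and −1.21 ± 0.433 with EGF+AngII+U46619 (FDR 0.0239), below 5 FPM throughout and with the overlap with other genes' exons given above. Ptger3, whose receptor lowers cAMP, was detected mainly in mouse 1, which had 8.45 FPM in the control, 10.9 with AngII, 2.94 with EGF, 2.68 with EGF+AngII, 2.50 with U46619, 0.823 with EGF+U46619 and 1.03 with EGF+AngII+U46619. Mouse 2 had at most 1.52 FPM, the other 4 mice had at most 0.398 FPM, and 20 of the 42 libraries had no count. The log2-fold change of −3.21 ± 0.973 with EGF+U46619 passed in edgeR (FDR 0.00961) but not in DESeq2 (FDR 0.104). With U46619 alone it was −1.37, and −1.87 to −0.55 over the alternatives, with 0 calls. Ptger2 had 21 counts in all 24 h libraries together, with 0 in 34 of 42 and at most 0.301 FPM, and was not tested.

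Over the 9 members tested after 24 h, 3 were DEG with U46619 (Ptgs1 and Ptgs2 higher, Ptgir lower), against 27.6% of all genes tested. The same 3 were DEG with EGF+U46619 (background 33.1%) and with EGF+AngII+U46619 (34.3%), so that the members' share was near that of all genes in each. In a fit without the mouse as a term, Ptgs2 was the 1 member called in each of these 3 incubations, and the share of all genes called fell as well, to 7.08%, 12.5% and 14.6%. With EGF+AngII it was 1 (Ptgs1, background 3.11%), with EGF 0 (background 0.0273%) and with AngII 0 (background 0%). For EGF, 4 genes of the whole table passed in edgeR alone and 397 in DESeq2 alone, and for AngII 0 passed in either, with 65 genes at an unadjusted p under 0.05 by edgeR and DESeq2 alike. Directly compared, 2 were DEG between EGF+U46619 and EGF (Ptgs2 and Ptgir, background 13.2%) and 3 between U46619 and EGF (Ptgs2, Ptgir and Ptger4, background 11.2%). The median log2-fold change of the 9 was −0.65 with U46619 and −0.09 with EGF+U46619, against −0.06 and −0.05 over all genes. Leaving aside the 5 FPM minimum, 6 of the 9 passed both tools with U46619 (background 33.4%), 6 with EGF+U46619 (39.9%) and 5 with EGF+AngII+U46619 (42%).

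**Figure D3:**
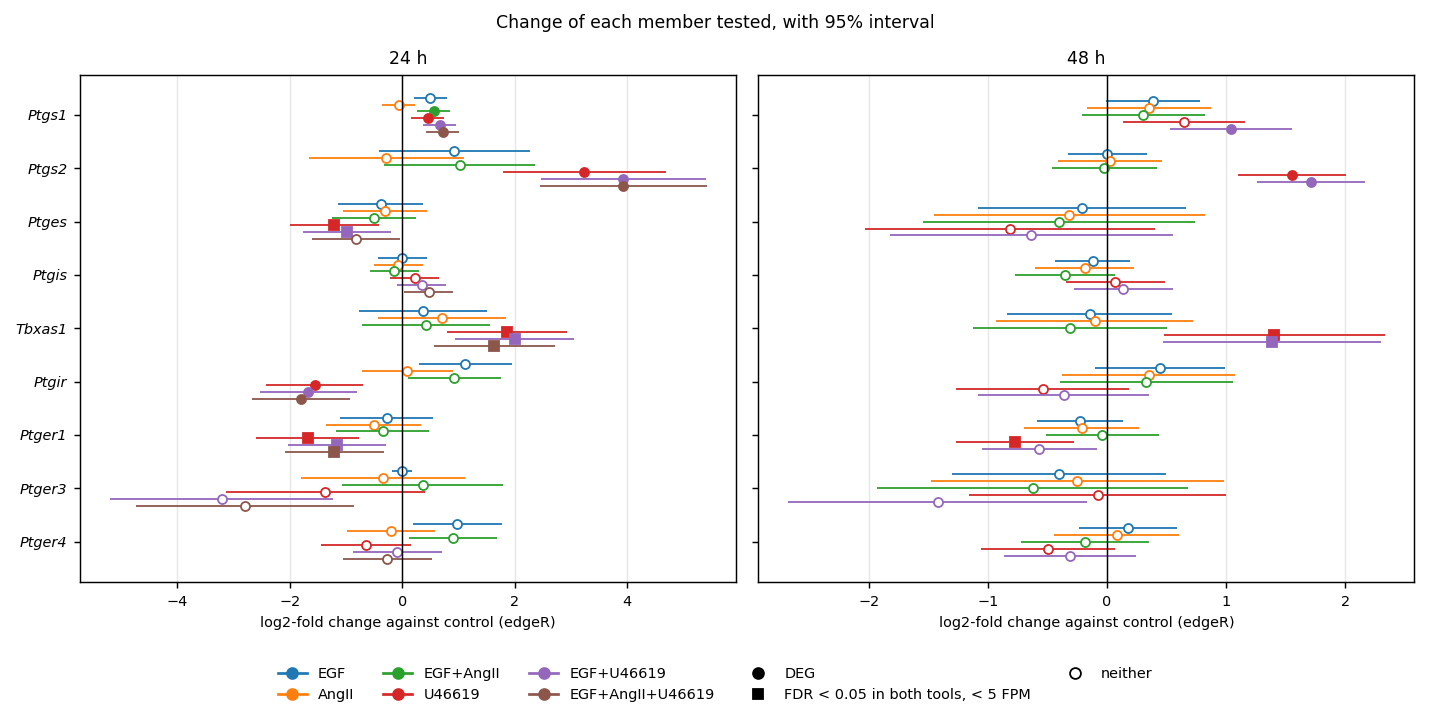
Log2-fold change against control of the 9 members tested, by incubation and time, with bars for the 95% interval; filled circles are DEG, squares passed an FDR of 0.05 in both tools but stayed under 5 FPM, and open symbols passed neither rule. Ptgs2 lies to the right and Ptgir to the left of 0 in the 24 h incubations with U46619, and Ptgis, open throughout, lies between −0.35 and 0.47.

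Markers of other cell types moved with U46619 after 24 h. The marker counts below are of DEG, beside backgrounds of 27.6% of all genes with U46619 and 33.1% with EGF+U46619. Of 6 fibroblast markers, 5 were lower with U46619 and 6 with EGF+U46619, and their sum was 595 to 3502 FPM in the controls and 237 to 2233 FPM with U46619. Of 6 smooth muscle markers tested, 2 were higher with U46619, Acta2, the smooth muscle actin, by a log2-fold change of 2.05 and Lmod1 by 0.84, 1 with EGF+U46619 (Acta2, 1.62) and 0 were lower, with a median over the 6 of 0.25 and 0.24. Their sum, most of it Acta2 (median 2424 FPM in the controls), went from 1256–5380 to 4426–15180 FPM with U46619. Macrophage and leukocyte markers summed to 20.9 to 114 FPM in the controls and 23.3 to 76.7 FPM with U46619, with Csf1r higher (1.08) and Lyz2 lower (−1.31), Adgre1 at or under 0.133 FPM and Ptprc at or under 0.0541 FPM in every 24 h library. Of the platelet list, Itga2b was lower (−1.46), and of the mesothelial list Krt19 was higher (2.35). Of 6 endothelial markers tested, 0 were DEG, at a median log2-fold change of −0.40 with U46619. The part of these shifts in the members' changes was not tested.

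After 48 h, Ptgs2 was again higher with U46619. The time points came from separate batches, so the sign of a change can be compared between them but not its size. In the 5 sets of the EGF/U46619 batch, its controls stood at 8.05, 8.64, 5.97, 11.0 and 53.5 FPM, U46619 at 25.7, 31.1, 27.9, 41.2 and 117 FPM and EGF+U46619 at 26.8, 42.7, 41.0, 38.1 and 88.3 FPM. Set 5 was the highest in each group, and every treated culture lay above its own control. The log2-fold change was 1.55 ± 0.219 with U46619 (edgeR FDR 3.09e-05, n = 5) and 1.71 ± 0.221 with EGF+U46619 (FDR 4.34e-06). Within the EGF/U46619 batch alone these were 1.72 and 1.88, and without the control libraries of sets 2 and 4 of the other batch 1.61 and 1.77. With the labels' mouse number in place of the culture set as a term, U46619 gave 1.27 (FDR 0.0661), and without either term 0.61 (FDR 0.7). The same direction held against EGF, with 1.55 ± 0.211 for U46619 (FDR 2.02e-05) and 1.71 ± 0.213 for EGF+U46619 (FDR 4.98e-06), whereas EGF+U46619 and U46619 differed by 0.16 (95% interval −0.31 to 0.63, FDR 1). EGF gave 0.00 (−0.33 to 0.34, FDR 0.999, n = 10), AngII 0.03 (FDR 1) and EGF+AngII −0.02 (FDR 0.995). The value for EGF joins 0.33 (FDR 0.536) in the EGF/U46619 batch and −0.31 (FDR 0.56) in the EGF/AngII batch. It was 0.12 without the control libraries of sets 2 and 4. Over the alternatives, AngII ranged from −0.13 to 0.43 and EGF+AngII from −0.17 to 0.34, with 0 calls. In the EGF/AngII batch, the controls were already at 32.5, 34.2, 28.6, 7.02 and 129 FPM, so that they overlapped the cultures with U46619 of the other batch.

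Ptgs1 stood at 52.7, 57.1, 41.2, 43.6 and 85.0 FPM in the controls of the EGF/U46619 batch, at 64.6, 129, 71.5, 68.4 and 125 FPM with U46619 and at 67.8, 175.2, 91.7, 77.3 and 241 FPM with EGF+U46619. All 5 sets were higher than their control in both groups. The log2-fold change was 1.04 ± 0.248 with EGF+U46619 (edgeR FDR 0.00381, and 1.03 without the control libraries of sets 2 and 4), and 0.64 ± 0.249 with U46619, which did not pass (FDR 0.0911). Within its batch the change with U46619 was 0.69 (FDR 0.00405), and without the control library of set 4 it was 0.56 (FDR 0.0171). Both are past the threshold, so that the call turned on libraries of the other batch. The log2 change of Ptgs2 exceeded that of Ptgs1 by 1.02 ± 0.388 (SD, n = 5) with U46619 in 5 of 5 sets (exact permutation p = 0.062, the smallest that 5 sets can give, adjusted 0.275). The median share of Ptgs2 in the summed cyclooxygenases per length was 11.5% in the 5 controls of the EGF/U46619 batch (10.9% to 34.8%), 25.2% with U46619 (17.0% to 44.2%) and 25.1% with EGF+U46619. The controls of the EGF/AngII batch had a median of 51.4%.

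**Figure D4:**
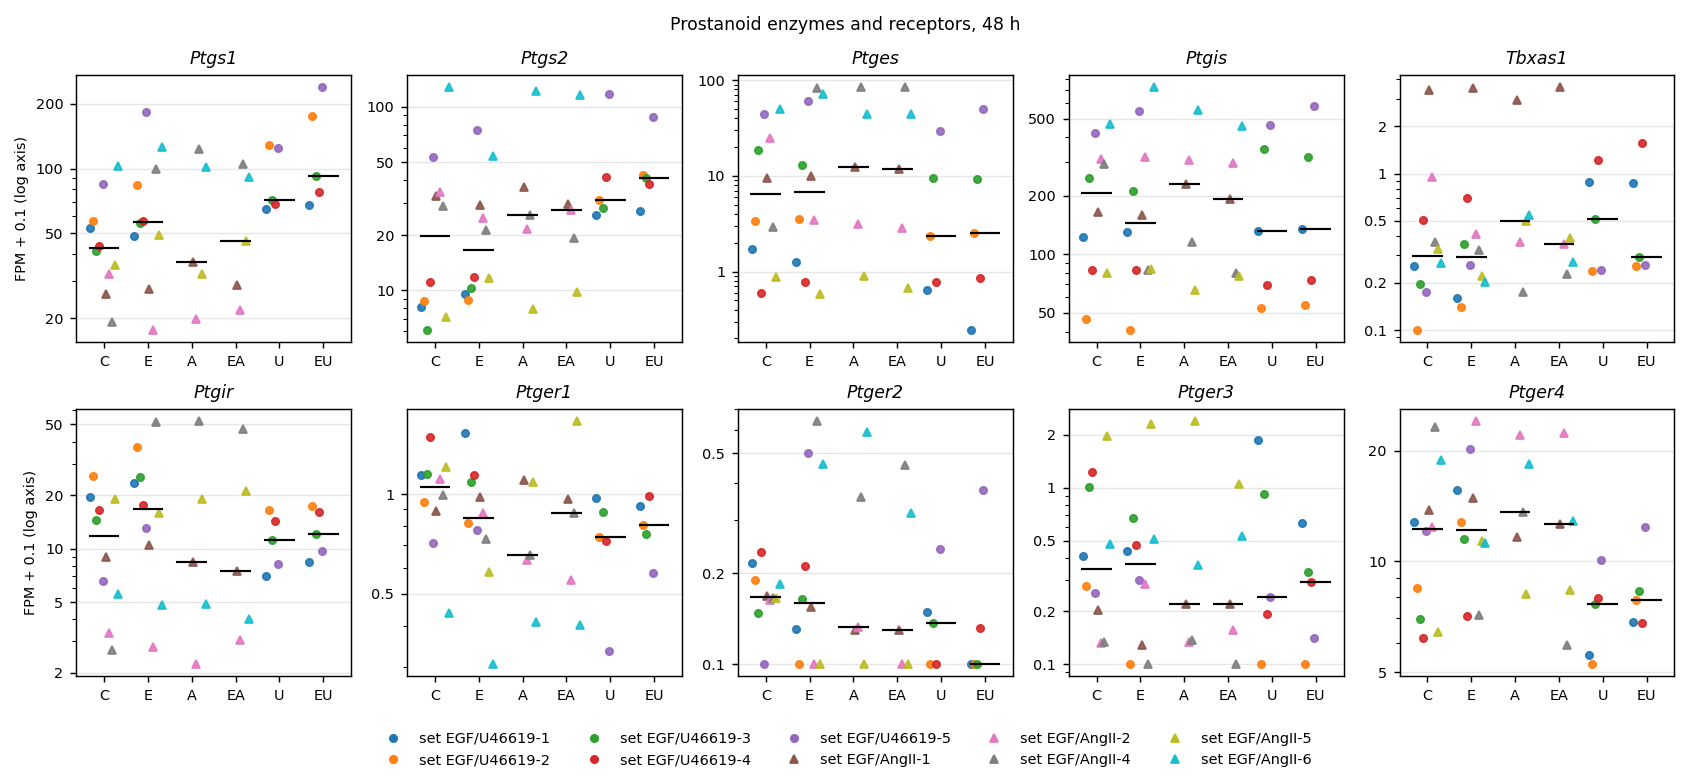
FPM of the 10 genes after 48 h, with 1 point per culture coloured by culture set, circles for the EGF/U46619 batch and triangles for the EGF/AngII batch, a line at the median of each group (n = 10 for control and EGF, otherwise 5) and a logarithmic axis of FPM plus 0.1. Ptges spreads from 0.145 to 85.3 FPM between culture sets, and the highest Tbxas1 values are those of set 1 of the EGF/AngII batch.

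The synthases after 48 h differed mostly between culture sets. Ptgis ranged from 46.2 to 469 FPM over the 10 controls, and its log2-fold change was 0.07 (95% interval −0.35 to 0.48, edgeR FDR 0.87) with U46619, and 0.18 (FDR 0.352) without the control libraries of sets 2 and 4. Between-set differences made up 97.9% of its sum of squares in the EGF/U46619 batch. Its highest controls, set 6 of the EGF/AngII batch at 469 FPM and set 5 of the EGF/U46619 batch at 421 FPM, also had the highest sums of fibroblast (3004 and 3384 FPM) and mesothelial (430 and 98.9 FPM) markers. Ptges had 1.63, 3.27, 18.5, 0.494 and 44.7 FPM in the controls of the EGF/U46619 batch and 0.536, 2.26, 9.35, 0.687 and 29.7 FPM with U46619, lower in 4 of 5 sets. Its log2-fold change was −0.82 ± 0.592 (FDR 0.411), but −0.74 (FDR 0.0364) within the batch and −0.70 (FDR 0.0168) without the control libraries of sets 2 and 4. Tbxas1 passed both tools below 5 FPM, with 1.41 ± 0.449 for U46619 (FDR 0.0377) and 1.39 ± 0.446 for EGF+U46619 (FDR 0.03), or 1.63 (FDR 0.00391) and 1.62 (FDR 0.00273) without those libraries, and stood at 0.156, 0, 0.0956, 0.404 and 0.0763 FPM in the controls of that batch against 0.779, 0.138, 0.411, 1.12 and 0.142 FPM with U46619. Its log2-fold change ranged over all alternatives from −0.10 to 1.83 with U46619 and from −0.025 to 1.83 with EGF+U46619. Leaving out 1 culture set at a time, it was 1.05 to 1.56 with U46619 and 1.04 to 1.62 with EGF+U46619. Its highest levels, 2.86 to 3.49 FPM, were those of set 1 of the EGF/AngII batch in all 4 incubations. The control of that set also had the highest sum of macrophage and leukocyte markers (634 FPM, the other controls 19.3 to 235 FPM), among them Adgre1 at 27.5 FPM, and their part in the Tbxas1 level was not tested.

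No receptor was a DEG after 48 h in the fit to all libraries. Ptgir stood at 19.4, 25.6, 14.5, 16.4 and 6.49 FPM in the controls of the EGF/U46619 batch and at 6.87, 16.3, 11.0, 14.2 and 8.07 FPM with U46619, lower in 4 of 5 sets. The log2-fold change was −0.54 ± 0.351 (edgeR FDR 0.349), −0.50 (FDR 0.0758) within the batch and −0.65 (FDR 0.0108) without the control library of set 4. With EGF it was 0.44 ± 0.265 (FDR 0.971). Ptger4 gave −0.50 ± 0.273 (FDR 0.258) with U46619, −0.43 (FDR 0.151) without the control libraries of sets 2 and 4, and 0.18 ± 0.199 (FDR 0.977) with EGF, at 5.15 to 24.0 FPM over all 48 h libraries. Ptger1 was lower with U46619 in 5 of 5 sets (−0.77 ± 0.240, FDR 0.0322, under 5 FPM, and −0.69, FDR 0.0392, without the control libraries of sets 2 and 4). Ptger3 reached at most 2.29 FPM, had 0 counts in 5 of 40 libraries, and gave −1.42 ± 0.609 (FDR 0.11) with EGF+U46619. With U46619 alone Ptger3 gave −0.08. Over the alternatives, which include leaving out these control libraries, this value ranged from −1.08 to 0.66, with 0 calls. Ptger2 had 106 counts in all, at most 0.541 FPM, and was not tested.

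Over the 9 members tested after 48 h, 1 was a DEG with U46619 (Ptgs2, background 9.79%) and 2 with EGF+U46619 (Ptgs1 and Ptgs2, background 13.7%). It was 1 between EGF+U46619 and EGF (Ptgs2, background 12.1%) and 1 between U46619 and EGF (Ptgs2, background 9.47%), and 0 with EGF, AngII or EGF+AngII (background 0%), for which 0 genes passed in either tool and 714, 557 and 503 reached an unadjusted p under 0.05 by both. Without the control library of set 4, 3 members were DEG with U46619 (Ptgs1, Ptgs2 and Ptgir, background 14.7%). Without those of sets 2 and 4 it was 4 (Ptges in addition, background 15.2%), and within the batch alone 3 (Ptgs1, Ptgs2 and Ptges, background 21.3%). With EGF+U46619 it stayed at 2 in these 3 settings (background 18.7%, 18.9% and 25.8%). Leaving aside the 5 FPM minimum, 3 passed both tools with U46619 (Ptgs2, Tbxas1 and Ptger1, background 12%) and 3 with EGF+U46619 (Ptgs1, Ptgs2 and Tbxas1, background 16.7%). Of 6 fibroblast markers, 2 were lower with U46619 (Lum and Pi16) and 3 with EGF+U46619 (Dcn in addition). Of the 6 smooth muscle markers tested, 0 and 4 were lower, respectively, the 4 being Acta2, Myh11, Smtn and Lmod1. The endothelial marker Tek and the leukocyte marker Lyz2 were lower with both, and the mesothelial marker Upk3b with EGF+U46619. Without the control libraries of sets 2 and 4, 5 fibroblast markers were lower in each, and 1 and 5 smooth muscle markers.

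Other genes of the pathway were taken from a list of 31, of which 23 were tested after 24 h and 25 after 48 h. With U46619 after 24 h, 2 were higher and 4 lower, 6 of 23 beside a background of 27.6% over all genes, so that their share was near that of all genes. The cytosolic phospholipase Pla2g4a, which releases arachidonic acid, gave 1.05 ± 0.326 (edgeR FDR 0.0129), and Ptges3, a prostaglandin E synthase and chaperone partner, gave 0.70 ± 0.172 (FDR 0.00207). The TP receptor itself, Tbxa2r, the target of U46619, gave −1.31 ± 0.321 (FDR 0.00218). The carbonyl reductase Cbr1, which converts prostaglandin E, gave −1.07 ± 0.189 (FDR 9.27e-05), the prostaglandin reductase Ptgr1 gave −0.41 ± 0.149 (FDR 0.0298) and the leukotriene hydrolase Lta4h −0.32 ± 0.0933 (FDR 0.00864). With EGF+U46619, 2 were higher and 5 lower (background 33.1%), with Pla2g4a at 1.47, Tbxa2r at −1.98 and Prxl2b in addition at −0.71. EGF+AngII+U46619 gave 3 higher and 4 lower (background 34.3%), EGF+AngII 0 higher and 1 lower (Cbr1, −0.82, background 3.11%), and EGF and AngII none (0). After 48 h, U46619 gave Pla2g4a higher (0.51 ± 0.154, FDR 0.0259) and Tbxa2r lower (−1.0 ± 0.254, FDR 0.00909), and EGF+U46619 gave the same 2 genes at 0.60 and −1.35 with Zadh2 in addition (0.23), beside backgrounds of 9.79% and 13.7%. Without the control library of set 4, or of sets 2 and 4, the same genes were called. Within the EGF/U46619 batch alone, where 20 were tested, further genes were called. Pla2g6 was then also higher in both incubations, and Ptgr1 and Cbr1 were lower with U46619, beside backgrounds of 21.3% with U46619 and 25.8% with EGF+U46619.

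Genes whose pattern over the 42 libraries after 24 h was most like that of a called member were ranked among 10162 genes by Pearson's r of log2 levels after subtraction of each mouse's (or culture set's) mean, with the libraries of a mouse not independent of each other. For Ptgs2 they were Ctdp1, Hbegf and Ankrd1 (r = 0.966 each), for Ptgs1 Pak1 (0.859), Ssr1 (0.831) and Mmd (0.828), and for Ptgir Col6a2 (0.961), Col6a1 (0.948) and Scarb2 (0.945). Over the 40 libraries after 48 h, the r of the 3 genes was 0.168, 0.423 and 0.845 with Ptgs2, 0.784, 0.48 and 0.82 with Ptgs1, and 0.598, 0.617 and 0.841 with Ptgir.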

How the data were processed

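The authors aligned paired reads of poly(A)-selected RNA to mm10 with HISAT2 2.1.0 and counted mapped reads per gene with featureCounts. The deposited tables hold raw counts for 82 libraries, and reads that align to several places were counted by the authors, so genes with near-identical copies share counts. Whether counting used the strand is not given in the sources used here.

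Counts were analysed with R 4.3.3, edgeR 4.0.16 (quasi-likelihood test) and DESeq2 1.42.0 (Wald test), and with Python 3.11.15, NumPy 2.4.6, pandas 2.3.3 and Matplotlib 3.10.9. Each time point was fitted once over all its groups and all genes kept by filterByExpr (14653 after 24 h, 15796 after 48 h, 14528 at both), with the mouse (24 h) or culture set (48 h) and the incubation as terms. A DEG had a Benjamini-Hochberg FDR under 0.05 in both tools, a mean of at least 5 FPM in a group compared, and passed the filter at both times. FPM are CPM computed with TMM library sizes. Each standard error follows from edgeR's F statistic.

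The numbers pair the cultures: deviations from the group means correlated above 0.1 in 126 of 126 pairs within a mouse and in 57 of 60 within a culture set. No libraries held identical counts (0 pairs). Differences between genes used log2(FPM + 0.5) and exact sign-flip permutation tests. The edgeR and DESeq2 fits and their calls were tested on simulated counts, for U46619 and AngII against control. The other steps were not tested in this way. The members and all gene lists were chosen with earlier results of these data known. Every member is named in every group, other pathway genes and markers by name only where called. Alternatives were each tool alone, other normalization, filters and terms, and leaving out each mouse, set or 1 or 2 control libraries, the last added after seeing the data.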

Additional observations from a re-analysis of the deposited data

Results flagged for a closer look

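In 21 of 117 groups of member levels with 4 to 10 cultures, 1 culture lay far from the others by Dixon's test, where chance gives about 1 in 20 groups, and cultures of a mouse are not independent. Mouse 3 stood out with high Ptgs1 under EGF (212 FPM), EGF+AngII (200.4 FPM), EGF+U46619 (222 FPM) and EGF+AngII+U46619 (259 FPM), and with high Ptgis under EGF (957 FPM) and EGF+AngII (936 FPM). Mouse 1 stood out with high Ptger3 under AngII (10.9 FPM), U46619 (2.50 FPM), EGF+U46619 (0.823 FPM) and EGF+AngII+U46619 (1.03 FPM). The same mouse had low Ptges under EGF+AngII (0.0478 FPM) and EGF+U46619 (0.110 FPM) and low Tbxas1 under U46619 (0.116 FPM). Mouse 6 had high Tbxas1 under AngII (0.611 FPM) and high Ptger1 under EGF+U46619 (1.76 FPM).

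After 48 h, set 1 of the EGF/AngII batch stood out with Tbxas1 in the control (3.31 FPM), EGF (3.40 FPM), AngII (2.86 FPM) and EGF+AngII (3.49 FPM). Set 5 of that batch stood out with Ptger3 under EGF (2.21 FPM) and AngII (2.29 FPM).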

How the results depend on the processing

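Of 354 recomputed log2-fold changes of called members, 321 kept their direction and their side of the threshold, 33 kept the direction only, and 0 reversed. The pairing mattered most. With no replicate block, that is without the mouse or set as a term, the members called fell after 24 h to 1 with U46619, 0 with EGF+AngII, 1 with EGF+U46619, 1 with EGF+AngII+U46619, 1 between EGF+U46619 and EGF and 1 between U46619 and EGF, and after 48 h to 0 with U46619, 0 with EGF+U46619 and 0 in both comparisons with EGF. Calls over all genes fell in the same fits, after 24 h from 4044 to 1037, 455 to 0, 4854 to 1826, 5023 to 2145, 1932 to 105 and 1645 to 24, and after 48 h from 1546 to 109 with U46619 and from 1905 to 100 and 1496 to 64 in the comparisons with EGF. The count over all genes with EGF+U46619 after 48 h in this fit is not given here. With the labels' mouse number in place of the set, 0 were called after 48 h with U46619 (585 genes in all) and 0 between U46619 and EGF (467 in all). Requiring 10 counts in every library, which Ptgs2 misses after 24 h and so cannot be a DEG at either time, left 1 between EGF+U46619 and EGF and 1 between U46619 and EGF after 24 h, and after 48 h 0 with U46619, 1 with EGF+U46619 and 0 in both comparisons with EGF, while calls over all genes were 1857, 1568, 1444, 2073, 1880 and 1438. DESeq2 alone, and the likelihood ratio test of edgeR instead of its quasi-likelihood one, each called 1 member with EGF after 24 h (Ptgs1) and 2 in both comparisons with EGF after 48 h. DESeq2 alone called 397 genes in all with EGF after 24 h. After 48 h it called 2239 between EGF+U46619 and EGF and 1799 between U46619 and EGF. Without a filter on low counts 2 were called in both comparisons with EGF after 48 h. Counts over all genes are not given here for this filter or the likelihood ratio test. Without the 5 FPM minimum the counts after 24 h were 6 with U46619, 6 with EGF+U46619, 5 with EGF+AngII+U46619 and 5 between U46619 and EGF, and after 48 h 3 with U46619 and 2 in both comparisons with EGF. The backgrounds without this minimum were 33.4%, 39.9% and 42% for the first 3 of these and 12% with U46619 after 48 h. For the comparisons with EGF they are not given here. With only the groups compared in the fit, 0 were called with EGF+AngII and 1 between U46619 and EGF after 24 h, and after 48 h 3 with U46619 and 4 in both comparisons with EGF, beside 0, 1280, 2113, 1390 and 1080 genes in all. With only the batch that holds the incubation, 3 were called with U46619, 4 between EGF+U46619 and EGF and 3 between U46619 and EGF after 48 h, beside 3111, 2019 and 1626 genes in all. These counts were 3, 4 and 3 without the control library of set 4 of the EGF/AngII batch (2311, 2437 and 2063 genes in all) and 4, 3 and 4 without those of sets 2 and 4 (2382, 2437 and 2026). Leaving out each mouse in turn, 0 to 1 members were called with EGF (1 without mouse 6), 0 to 1 with EGF+AngII (0 without mouse 1, 2, 3 or 5) and 1 to 3 between U46619 and EGF after 24 h (1 without mouse 2). Leaving out each set in turn gave after 48 h 1 to 3 with U46619 (2 without set 2 and 3 without set 4 of the EGF/AngII batch), 1 to 4 between EGF+U46619 and EGF and 1 to 3 between U46619 and EGF (the highest without set 4). Counts over all genes are not given here for the fits that leave out a mouse or a set. A change particular to the members cannot be read from these ranges. The log2 change of Ptgis minus Tbxas1 with U46619 was −1.26 after 24 h and −1.10 after 48 h with a pseudocount of 0.1 FPM. The causes were not tested. Ptger2, Ptger3 and Tbxas1 lie near the limit that 3 counts set, so that their changes are poorly determined at this depth.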
